A study of Rattus norvegicus with 10 samples.

Results

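Leydig cell genes were followed here in round spermatid libraries: 10 genes, picked by name, of the 32545 genes in the deposited files. They encode a hormone (Insl3), a receptor (Lhcgr), proteins of cholesterol entry (Scarb1, Star), enzymes and an electron carrier of steroid synthesis (Cyp11a1, Fdx1, Cyp17a1, Hsd17b3, Hsd11b1) and a transcription factor (Nr5a1). All 10 names matched 1 row each. The study compared round spermatids, early haploid cells of the male germ line, between aged and young Brown Norway rats. The aged group held 5 samples from rats of 18 to 20 months and the young group 5 samples from rats of 4 to 6 months. All rats were labelled wild type, received no agent and were kept with free access to food and water. The fraction came from STA-PUT, a sorting of testis cells by how fast they sediment, and messenger RNA was sequenced. The labels do not say that each sample is a separate animal, so p-values measure only how far these samples spread, which may be technical.

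Leydig cells lie between the seminiferous tubules and make androgens. Luteinizing hormone binds its receptor, LHCGR, and raises cyclic AMP. Cholesterol then enters the cell and is moved into mitochondria, where CYP11A1 cuts its side chain with electrons passed on by ferredoxin. CYP17A1 and a 17-beta-hydroxysteroid dehydrogenase, with the 3-beta-hydroxysteroid dehydrogenases, carry the product on to testosterone. NR5A1, also called SF-1, is a transcription factor that binds the promoters of many of these genes. Round spermatids are the labelled cell type of the samples, and Leydig cells are not.

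Levels are in FPKM, fragments counted on a gene scaled by its length and by the size of the library, and so compare genes per length. The libraries held 15992576 to 18203223 fragments in the aged group and 14488222 to 17401744 in the young group. Round spermatid markers were abundant in both groups: 9 genes, among them the protamines Prm1 and Prm2, summed to 23178 to 30271 FPKM in aged and 23319 to 37583 FPKM in young libraries. The 9 Leydig cell genes other than Fdx1 held 288 to 2259 fragments per aged library and 145 to 237 per young library. In bulk RNA, more cells of a type and more RNA per cell cannot be told apart. Aged replicates 1 and 2 stood apart from the other libraries in these genes, so values are also given without them.

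Insl3 and Cyp17a1 were the members whose aged and young libraries did not overlap, and both were higher in every aged library; over all 20001 genes with a mean FPKM of 0.1 or more, 1.49% showed this. Star, Cyp11a1, Hsd11b1 and Nr5a1 were also high in aged replicates 1 and 2 but overlapped the young range elsewhere. Scarb1 was above the other libraries in aged replicate 2. In Lhcgr, Hsd17b3 and Fdx1 the groups overlapped. No member passed the test over all genes. The adjusted p of the 5 members tested lay between 0.319 and 0.953 (limma on log2(FPKM + 1), two-sided, Benjamini-Hochberg over 12985 genes). Over all these genes 0% passed. At an unadjusted p under 0.05 there were 1544, or 11.9%, of which 719 were higher and 825 lower in aged libraries. That split moved with the scaling, to 853 higher and 541 lower with TPM, 870 and 684 with median-of-ratios scaling and 964 and 572 with voom on recovered fragments.

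**Figure D1:**
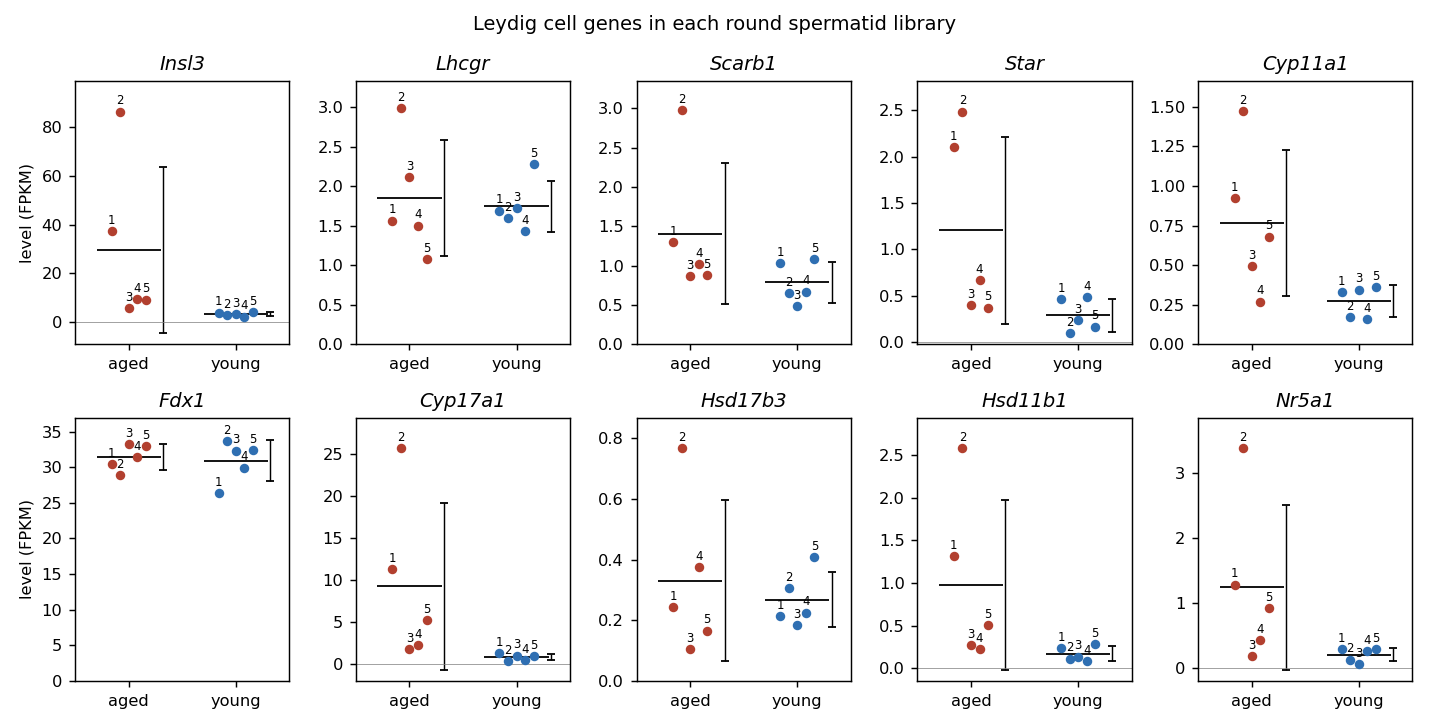
Level of each of the 10 genes in FPKM (vertical axis, linear, a scale per panel) in the aged and young libraries. Points are libraries with their replicate number, the line is the group mean and the bar its SD (n = 5). Aged replicate 2 is the highest library for 9 genes; all libraries of Fdx1 lie between 26.3 and 33.7 FPKM.

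Insl3 encodes insulin-like peptide 3, the Leydig cell hormone that guides testis descent (ENSRNOG00000018757, chromosome 16, 20121352 to 20122696, plus strand, 595 bp of counted length). It stood at 37.3, 86.4, 5.81, 9.60 and 9.29 FPKM in aged replicates 1 to 5, against 3.98, 2.77, 3.45, 2.31 and 4.03 FPKM in young replicates 1 to 5. Every aged library was above the highest young one, aged replicates 1 and 2 by far and the other 3 by less. The means were 29.7 ± 34.2 FPKM in aged and 3.31 ± 0.754 FPKM in young libraries (SD, n = 5 each), a ratio of 8.97. Without aged replicate 2 the ratio was 4.68, and without aged replicates 1 and 2 it was 2.49 (8.24 ± 2.10 FPKM, SD, n = 3). The fitted log2 difference was 2.16 (SE 0.60, limma, adjusted p = 0.319). These values rest on 60 to 843 fragments per aged library and 22 to 40 per young library.

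Insl3 lies inside the span of a gene listed on the opposite strand, AABR07024869.1 (20108364 to 20149067). That gene was at 0 to 0.342 FPKM in aged and 0 to 0.188 FPKM in young libraries. No source used here gives the strand setting of the counting, so fragments of the pair cannot be told apart. No other member overlapped a listed gene.

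Lhcgr encodes the receptor for luteinizing hormone, the signal that drives Leydig cells (ENSRNOG00000016712, chromosome 6, 12493943 to 12554439, minus strand). Its levels were 1.56, 2.99, 2.11, 1.5 and 1.08 FPKM in aged replicates 1 to 5, against 1.69, 1.59, 1.73, 1.43 and 2.28 FPKM in young replicates 1 to 5. The groups overlapped, with the highest and the lowest value both in aged libraries. Aged replicate 1, which stood out for Insl3, was within the young range for Lhcgr. The fitted log2 difference was 0.03, with a 95% interval of -0.33 to 0.38 (limma, adjusted p = 0.953).

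The hormone and its receptor thus had unlike ratios across libraries. Insl3 over Lhcgr was 23.9, 28.9, 2.75, 6.40 and 8.60 in aged replicates 1 to 5, against 2.36, 1.74, 2.001, 1.62 and 1.77 in young replicates 1 to 5. The lowest aged ratio was above the highest young one. This ratio was chosen after its values were seen and was not tested.

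Scarb1 encodes the scavenger receptor that takes up cholesterol from lipoproteins (ENSRNOG00000000981, chromosome 12, 36694960 to 36761455, plus strand). It was at 1.30, 2.97, 0.869, 1.01 and 0.877 FPKM in aged replicates 1 to 5 and at 1.03, 0.653, 0.489, 0.670 and 1.08 FPKM in young replicates 1 to 5. Aged replicate 2 was apart from all others, and the remaining libraries overlapped. The means were 1.41 ± 0.893 and 0.785 ± 0.258 FPKM for aged and young libraries (SD, n = 5 each), with a fitted log2 difference of 0.38 (SE 0.20, limma, adjusted p = 0.469). Scarb1, like Cyp17a1, reached the filter of 1 FPKM only through the aged libraries, and without aged replicate 2 Scarb1 was below it.

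Star encodes the protein that moves cholesterol to the inner mitochondrial membrane, the rate-limiting step of acute steroid production (ENSRNOG00000015052, chromosome 16, 71036204 to 71040847, minus strand). Its levels were 2.10, 2.48, 0.400, 0.671 and 0.373 FPKM in aged replicates 1 to 5, against 0.462, 0.098, 0.237, 0.488 and 0.168 FPKM in young replicates 1 to 5. Aged replicates 1 and 2 were high and close to each other, and aged replicates 3 and 5 lay within the young range. Star was counted by only 7 to 47 fragments per aged library and 2 to 9 per young library, so its low values carry a large counting error.

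Star, Cyp11a1, Hsd17b3, Hsd11b1 and Nr5a1 had means under 1 FPKM over the 10 libraries and were fitted over the 20001 genes whose mean FPKM was 0.1 or more. In that fit the log2 difference of Star was 0.67 (SE 0.26, limma, adjusted p = 0.427). Again 0% of all genes passed, and 10.9% had an unadjusted p under 0.05, 5.79% with a higher level in aged libraries. Of the 10 members 6 had such a p, and all 6 were higher: Insl3, Cyp17a1, Cyp11a1, Nr5a1, Star and Hsd11b1. Without aged replicate 1 there were 3, without young replicate 2 also 3, and without young replicate 3 also 3, all higher. Over all genes in these runs, 900 of 19977, 893 of 20022 and 916 of 19997 were higher with such a p. Counting both directions, the shares were 9.01%, 8.77% and 9.05%. Without aged replicates 1 and 2 there were 2, Insl3 and Cyp17a1, both higher. Over all genes in that run, 745 of 19837 were higher with such a p, and 7.07% had one in either direction. The members were picked with earlier results of these data known, so these counts are a description.

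**Figure D2:**
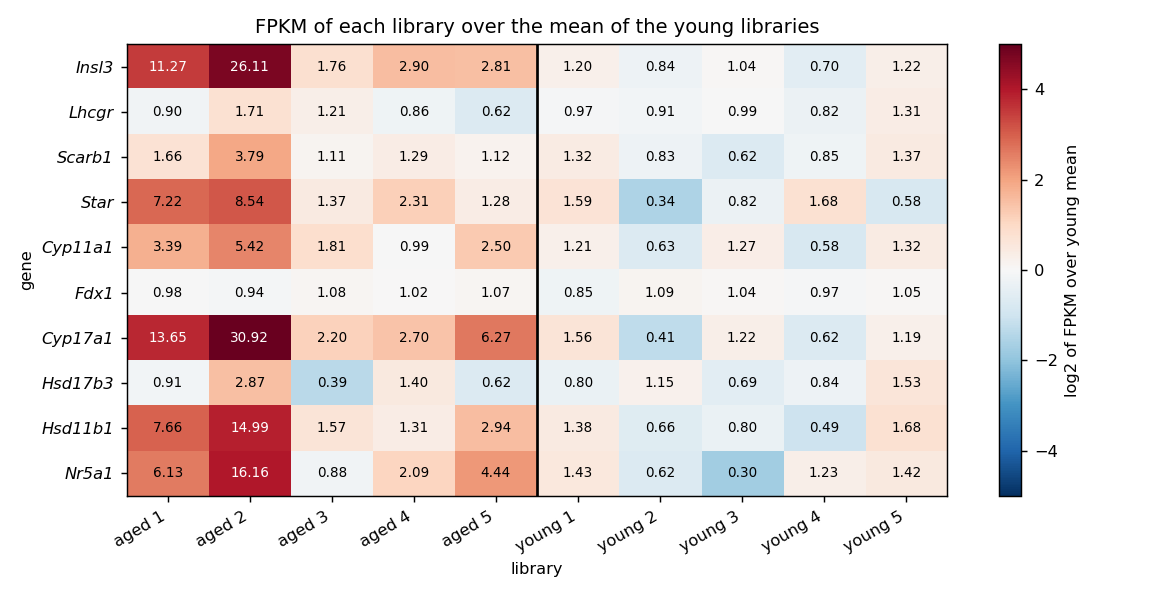
FPKM of each library divided by the mean of the 5 young libraries, for each gene (rows) and library (columns), coloured on a log2 scale with the ratio printed. Insl3 and Cyp17a1 reach 26.11 and 30.92 in aged replicate 2 and 11.27 and 13.65 in aged replicate 1, while Fdx1 stays between 0.85 and 1.09.

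Cyp11a1 encodes the mitochondrial enzyme that cuts the cholesterol side chain, the entry step of all steroid synthesis (ENSRNOG00000008074, chromosome 8, 62779875 to 62809893, plus strand). It was at 0.922, 1.47, 0.494, 0.270 and 0.681 FPKM in aged replicates 1 to 5 and at 0.328, 0.172, 0.345, 0.157 and 0.359 FPKM in young replicates 1 to 5. Of the aged libraries 4 were above the young range and aged replicate 4 was inside it. The log2 difference was 0.44 (SE 0.16, limma, adjusted p = 0.412). The counts were 9 to 48 fragments per aged library and 5 to 11 per young library.

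Fdx1 encodes ferredoxin 1, which carries electrons to mitochondrial P450 enzymes and serves in many tissues (ENSRNOG00000012123, chromosome 8, 56373723 to 56393233, minus strand). It was at 30.4, 28.9, 33.3, 31.4 and 33.0 FPKM in aged replicates 1 to 5, against 26.3, 33.7, 32.3, 29.96 and 32.4 FPKM in young replicates 1 to 5. The groups overlapped fully, and aged replicate 2, the highest library for every other member, was the lowest aged library here. The means were 31.4 ± 1.81 FPKM in aged and 30.9 ± 2.90 FPKM in young libraries (SD, n = 5 each), with a log2 difference of 0.02 and a 95% interval of -0.13 to 0.17 (limma, adjusted p = 0.895).

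Cyp17a1 encodes the enzyme that turns progestogens into androgen precursors (ENSRNOG00000020035, chromosome 1, 266422132 to 266428239, minus strand). It was at 11.4, 25.7, 1.83, 2.25 and 5.21 FPKM in aged replicates 1 to 5, against 1.30, 0.342, 1.01, 0.514 and 0.994 FPKM in young replicates 1 to 5. All aged libraries were above all young ones. Over all 20001 genes with a mean FPKM of 0.1 or more, 1.49% had groups that did not overlap with higher aged values. Cyp17a1 reached the filter of 1 FPKM only through the aged libraries. The means were 9.27 ± 9.95 FPKM in aged and 0.832 ± 0.392 FPKM in young libraries (SD, n = 5 each), a ratio of 11.1, which was 6.21 without aged replicate 2 and 3.72 without aged replicates 1 and 2. The log2 difference was 1.995 (SE 0.53, limma, adjusted p = 0.319).

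Insl3 and Cyp17a1 kept a like proportion in most libraries. Insl3 over Cyp17a1 was 3.28, 3.36, 3.17, 4.27 and 1.78 in aged replicates 1 to 5, against 3.07, 8.09, 3.41, 4.501 and 4.05 in young replicates 1 to 5. Aged replicate 5 had the lowest ratio, with an Insl3 level like that of aged replicate 4 and more Cyp17a1. Young replicate 2 had the highest ratio, on 29 fragments of Insl3 and 11 of Cyp17a1.

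Hsd17b3 encodes the dehydrogenase that makes testosterone from androstenedione (ENSRNOG00000019096, chromosome 17, 1579319 to 1610745, minus strand). It was at 0.242, 0.769, 0.104, 0.375 and 0.166 FPKM in aged replicates 1 to 5, against 0.213, 0.307, 0.185, 0.225 and 0.408 FPKM in young replicates 1 to 5. Aged replicate 2 was the highest and aged replicate 3 the lowest, and the groups overlapped. With 2 to 14 fragments per aged library and 3 to 7 per young library, small differences were not detectable at this depth. The log2 difference was 0.05, with a 95% interval of -0.22 to 0.32 (limma, adjusted p = 0.881).

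Hsd11b1 encodes an enzyme that interconverts active and inactive glucocorticoids and is high in mature rat Leydig cells (ENSRNOG00000005861, chromosome 13, 111926442 to 111972603, minus strand). It was at 1.32, 2.58, 0.269, 0.225 and 0.505 FPKM in aged replicates 1 to 5, against 0.237, 0.114, 0.137, 0.0834 and 0.288 FPKM in young replicates 1 to 5. Aged replicates 3 and 4 lay within the young range and the other 3 aged libraries above it. The log2 difference was 0.63 (SE 0.26, limma, adjusted p = 0.440).

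Nr5a1 encodes SF-1, which is also made in Sertoli cells (ENSRNOG00000012682, chromosome 3, 22999616 to 23020441, minus strand). It was at 1.28, 3.38, 0.185, 0.436 and 0.929 FPKM in aged replicates 1 to 5, against 0.299, 0.130, 0.063, 0.258 and 0.297 FPKM in young replicates 1 to 5. Aged replicate 3 lay within the young range, and the other 4 aged libraries were above it. The log2 difference was 0.74 (SE 0.29, limma, adjusted p = 0.426), on 7 to 121 fragments per aged library and 2 to 11 per young library.

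Promoter windows of RefSeq (build GRCr8, 250 bases before to 50 after the start of a transcript) were found for 6 of the 10 members: Insl3, Lhcgr, Cyp11a1, Fdx1, Hsd17b3 and Nr5a1. Those shown are of Insl3 (chr16:18432939-18433238, plus strand) and Cyp11a1 (chr8:67318415-67318714, plus strand), which were both highest in aged replicates 2 and 1, and of Fdx1 (chr8:61183596-61183895, minus strand), whose level was even across libraries. Capitals mark the core letters of an SF-1 site, CAAGGTC or CAAGGCC, searched on both strands.
Insl3: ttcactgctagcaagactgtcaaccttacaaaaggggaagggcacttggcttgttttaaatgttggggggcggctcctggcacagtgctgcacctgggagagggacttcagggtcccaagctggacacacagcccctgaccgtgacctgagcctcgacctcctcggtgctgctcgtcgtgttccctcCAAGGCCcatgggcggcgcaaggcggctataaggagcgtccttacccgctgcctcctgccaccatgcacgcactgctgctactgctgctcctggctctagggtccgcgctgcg
Cyp11a1: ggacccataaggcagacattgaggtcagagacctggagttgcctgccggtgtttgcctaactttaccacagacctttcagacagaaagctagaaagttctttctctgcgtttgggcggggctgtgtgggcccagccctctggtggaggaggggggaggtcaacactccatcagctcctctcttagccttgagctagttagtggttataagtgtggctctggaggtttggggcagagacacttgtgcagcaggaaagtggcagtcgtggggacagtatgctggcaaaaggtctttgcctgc
Fdx1: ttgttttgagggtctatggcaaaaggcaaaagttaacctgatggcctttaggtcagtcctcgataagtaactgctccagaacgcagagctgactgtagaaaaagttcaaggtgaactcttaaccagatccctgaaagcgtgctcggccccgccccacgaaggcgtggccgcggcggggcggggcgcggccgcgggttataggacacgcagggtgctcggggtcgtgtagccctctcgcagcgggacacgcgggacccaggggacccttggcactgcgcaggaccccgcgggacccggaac
The core was found in 1 of the 6 windows, that of Insl3, where it begins 63 bases before the start on the plus strand. Over all 33469 windows of this length, 10.4% held it. The letters TATAAA were in 0 of the 6 windows and in 14.2% of all windows. A match is a description of the letters in these windows, not a binding site. Only these exact letters were searched, so a window with no match can still hold a variant of the site.

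The order of the mean levels differed between the groups, with aged replicates 1 and 2 in the aged means. Without them the aged means of Insl3, Cyp17a1 and Lhcgr were 8.24, 3.10 and 1.56 FPKM. Cyp17a1 was above Lhcgr in every aged library but replicate 3 (1.83 against 2.11 FPKM). In aged libraries Fdx1 led with 31.4 FPKM, followed by Insl3 with 29.7, Cyp17a1 with 9.27, Lhcgr with 1.85, Scarb1 with 1.41, Nr5a1 with 1.24, Star with 1.21, Hsd11b1 with 0.978, Cyp11a1 with 0.768 and Hsd17b3 with 0.331 FPKM. In young libraries Fdx1 led with 30.9 FPKM, followed by Insl3 with 3.31, Lhcgr with 1.74, Cyp17a1 with 0.832, Scarb1 with 0.785, Star with 0.291, Cyp11a1 with 0.272, Hsd17b3 with 0.268, Nr5a1 with 0.209 and Hsd11b1 with 0.172 FPKM. Neighbours in the aged order all overlapped in their ranges. In the young order Fdx1, Insl3 and Lhcgr each lay clear of the next gene, Cyp17a1 and Scarb1 overlapped, Scarb1 lay clear of Star, and the last 5 genes overlapped their neighbours.

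Leaving out Fdx1, which made up 18.3% to 73.4% of the members' summed level in aged and 73.4% to 84.5% in young libraries, the other 9 members summed to 57.4, 128.8, 12.1, 16.3 and 19.1 FPKM in aged replicates 1 to 5, against 9.54, 6.18, 7.65, 6.14 and 9.90 FPKM in young replicates 1 to 5. Even the lowest aged sum was above the highest young one. Insl3 and Cyp17a1, the members whose groups did not overlap on their own, are both in this sum. It therefore does not show the same of the other members. Cyp17a1 held 13.8% to 27.3% of the sum in aged and 5.54% to 13.6% in young libraries. Insl3 held 48.1% to 67.1% of this sum in aged and 37.7% to 45.2% in young libraries. Lhcgr held 2.32% to 17.5% in aged and 17.7% to 25.8% in young libraries.

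Aged replicate 2 was the highest library for 9 of the 10 members, and aged replicates 2 and 1 were the top pair for 7. Of all 20001 genes whose mean FPKM was 0.1 or more, 18.1% were highest in aged replicate 2, and 7.33% had these libraries as their top pair. The distance between aged replicates 2 and 1 was not the same for each member. Aged replicate 2 over aged replicate 1 was 3.17 for Hsd17b3, 2.64 for Nr5a1, 2.32 for Insl3, 2.28 for Scarb1, 2.26 for Cyp17a1, 1.96 for Hsd11b1, 1.91 for Lhcgr, 1.60 for Cyp11a1, 1.18 for Star and 0.952 for Fdx1. The ratio of Hsd17b3 rests on 14 and 5 fragments in aged replicates 2 and 1.

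**Figure D3:**
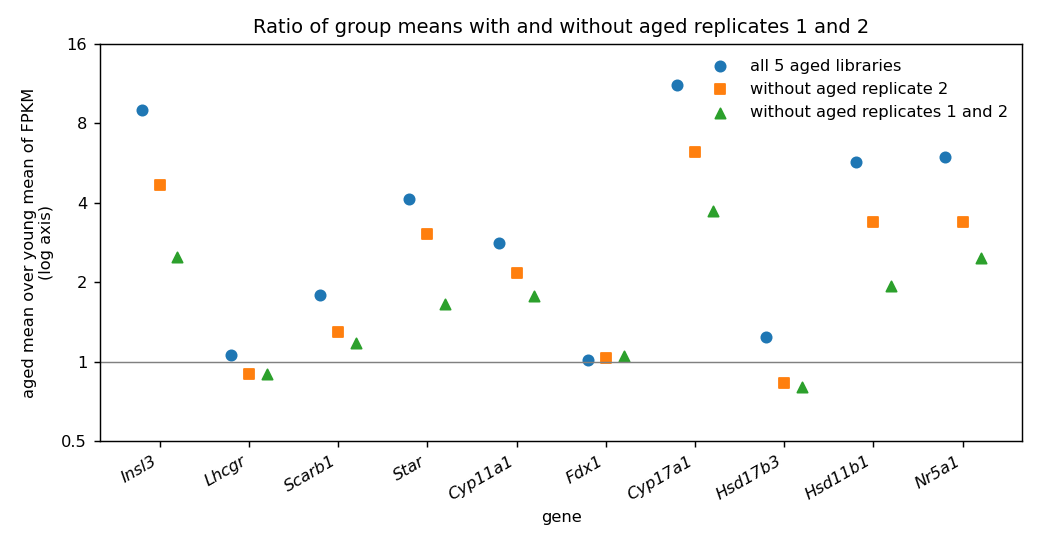
Aged mean over young mean of FPKM for each gene (log axis), with all 5 aged libraries (circles), without aged replicate 2 (squares) and without aged replicates 1 and 2 (triangles). Ratios of Insl3 run over 8.97, 4.68 and 2.49 and of Cyp17a1 over 11.1, 6.21 and 3.72; those of Lhcgr and Hsd17b3 pass below 1.

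The other genes of the pathway were taken in 6 lists. Of 56 genes, 53 matched a row and 25 were tested, of which 0 passed, 16 had a fitted difference above 0 and 9 below, with a median of 0.06 on the log2 scale. Over all tested genes 45.5% had a difference above 0, with a median of -0.02. At an unadjusted p under 0.05 there were 4, all higher, against 5.54% of all tested genes: Tspo, Hsd17b4, Nr4a1 and Cebpb. Of these, Tspo is named as a first member of its list and the other 3 were chosen after their values were seen. Cebpb reached the filter of 1 FPKM only through the aged libraries.

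In the list of cholesterol supply and transport, 1 of 6 tested genes had such a p. Tspo, an outer mitochondrial membrane protein that binds cholesterol, averaged 3.21 ± 1.71 FPKM in aged and 1.68 ± 0.497 FPKM in young libraries (SD, n = 5 each, as for all means below). Stard3, of late endosomes, averaged 11.1 ± 0.780 and 11.4 ± 0.527 FPKM in aged and young libraries. Among redox partners 0 of 4 had such a p. Fdxr, the reductase that feeds ferredoxin, averaged 1.86 ± 0.686 FPKM in aged and 1.44 ± 0.226 FPKM in young libraries, and Por, the reductase of microsomal P450 enzymes, 14.1 ± 0.702 and 14.3 ± 0.405 FPKM.

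Of the 3-beta-hydroxysteroid dehydrogenases, a family that includes enzymes of testosterone synthesis, 3 of the 5 listed had a row. Hsd3b1 was counted by 14 fragments over the 5 aged libraries, with levels of 0 to 0.320 FPKM, and by 2 over the 5 young libraries, with levels of 0 to 0.038 FPKM. Hsd3b5 had 0 fragments in all 10 libraries, which allows up to 0.0662 to 0.0755 FPKM per aged library and 0.0699 to 0.0842 FPKM per young library, at 3 fragments and for counting error only. Hsd3b7, which acts in bile acid synthesis, was counted by 41 fragments over the aged libraries and 44 over the young libraries, with means of 0.265 ± 0.152 and 0.299 ± 0.219 FPKM. This family has near-identical copies that the authors' counting could split or drop, so its values are uncertain. Cyp17a1, a later enzyme in the same cells, was at 1.83 to 25.7 FPKM in the aged libraries. Of the other steroid enzymes 3 were tested, and Hsd17b4, a peroxisomal enzyme found in many tissues, averaged 4.56 ± 0.700 FPKM in aged and 3.36 ± 0.410 FPKM in young libraries (log2 difference 0.35, limma, adjusted p = 0.319).

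Among regulators, 3 were tested. Nr4a1 and Cebpb had an unadjusted p under 0.05 (limma) and were higher, as were 5.54% of all tested genes. Cebpb reached the filter of 1 FPKM only through the aged libraries, so its place in this count is not independent of its aged level. Nr0b1, a repressor of SF-1 targets, averaged 0.821 ± 0.399 FPKM in aged and 0.356 ± 0.164 FPKM in young libraries, and Nr0b2, a related repressor, 0.178 ± 0.070 and 0.212 ± 0.242 FPKM. Nr4a1, an immediate-early nuclear receptor that acts on steroidogenic promoters, averaged 12.3 ± 2.05 FPKM in aged and 8.40 ± 1.16 FPKM in young libraries; the groups did not overlap, as in 1.36% of all genes tested. Cebpb averaged 1.80 ± 1.03 and 0.664 ± 0.185 FPKM in aged and young libraries.

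Signalling genes and hormone receptors had 0 of 7 and 0 of 2 tested genes with such a p. Gnas, the stimulatory G protein below LHCGR, averaged 6.04 ± 1.04 FPKM in aged and 5.18 ± 0.823 FPKM in young libraries, and Prkaca, the kinase that cyclic AMP frees, 38.7 ± 1.503 and 38.1 ± 1.70 FPKM. The symbol Gnas has more than 1 row, and the row with the higher level was used. Rxfp2, the receptor for the Insl3 hormone, which germ cells carry, averaged 3.19 ± 0.195 FPKM in aged and 3.18 ± 0.475 FPKM in young libraries.

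A further list of Leydig cell markers had 9 of 11 names matched and 4 tested. Of these, 3 had a difference above 0, 1 of them with an unadjusted p under 0.05 (limma). Over all genes tested, 45.5% had a difference above 0, and 5.54% were higher with such a p. Its sum was 61.8 to 83.5 FPKM in aged and 61.7 to 67.3 FPKM in young libraries. Most of it came from Gramd1b at 57.8 ± 2.56 and 59.5 ± 3.15 FPKM, so the sum says little of the other genes. Gramd1b was named after its values were seen. Prlr, the prolactin receptor, averaged 0.096 ± 0.107 FPKM in aged and 0.017 ± 0.028 FPKM in young libraries, and Pdgfra, also made in other stromal cells, 2.06 ± 1.27 and 1.41 ± 0.130 FPKM.

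Genes most like the members were found from the mean of the 5 members tested, each centred on its own mean of log2(FPKM + 1). Insl3 and Cyp17a1 spread most across libraries and so weigh most in this mean. Cyp17a1 and Scarb1 in it, and Tmem176b and Adh6 below, reached the filter of 1 FPKM only through the aged libraries. Pearson's r over the 10 libraries was 0.997 for Tmem176b, 0.994 for Aldh2, 0.992 for Adh6 and 0.991 for Timp3. The points share their libraries, aged replicates 1 and 2 lie far from the rest, and the genes were picked for these values, so r is a description. Over the 8 libraries without those, r was 0.984 for Tmem176b, 0.960 for Aldh2, 0.948 for Adh6 and 0.985 for Timp3. Tmem176b, a membrane protein, averaged 4.13 ± 4.65 FPKM in aged and 0.484 ± 0.179 FPKM in young libraries. Aldh2, a mitochondrial aldehyde dehydrogenase, averaged 9.34 ± 6.71 FPKM in aged and 3.69 ± 0.523 FPKM in young libraries.

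Markers of other testis cells were also highest in aged replicate 2. Macrophage markers, all 11 measured, summed to 21.3 to 114.3 FPKM in aged and 17.2 to 31.0 FPKM in young libraries. Aged replicates 2 and 1 held 114.3 and 49.0 FPKM, and the other aged libraries at most 21.9 FPKM. Cd68, a lysosomal protein of macrophages, averaged 1.07 ± 1.48 FPKM in aged and 0.180 ± 0.057 FPKM in young libraries, and Cd163, a scavenger receptor, 3.13 ± 3.80 and 0.576 ± 0.337 FPKM. Cd163, Csf1r, C1qa, C1qb and C1qc reached the filter of 1 FPKM only through the aged libraries, so no count of higher genes is given for this list. Adgre1, which encodes the macrophage marker F4/80, was lower in aged libraries, at 5.80 ± 0.672 FPKM against 7.16 ± 0.884 FPKM in young libraries (log2 difference -0.26, limma, adjusted p = 0.359). Adgre1 was named after its values were seen.

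Peritubular markers, 9 contractile genes of the tubule wall, summed to 103.8 to 258.4 FPKM in aged and 66.9 to 98.5 FPKM in young libraries. The summed levels of the groups did not overlap, and 8 of the 9 had a difference above 0, all 8 with an unadjusted p under 0.05 (limma), though 0 passed after adjustment. Over all genes tested, 5.54% had such a p with a higher aged level. Cnn1, among the 8, reached the filter of 1 FPKM only through the aged libraries. Acta2, smooth muscle actin, averaged 50.6 ± 21.1 FPKM in aged and 28.6 ± 5.73 FPKM in young libraries, and Myh11, smooth muscle myosin, 29.1 ± 6.25 and 21.8 ± 1.62 FPKM. The 12 Sertoli cell markers summed to 88.1 to 173.5 FPKM in aged and 89.2 to 95.5 FPKM in young libraries. Most of the young sum came from Tf, at 66.1 ± 1.98 FPKM in aged and 65.7 ± 1.25 FPKM in young libraries. Clu came next, at 29.5 ± 26.2 and 15.8 ± 1.82 FPKM, with an aged maximum of 75.9 FPKM. Tf and Clu were named after their values were seen. All 6 tested had a difference above 0, but 0 had an unadjusted p under 0.05 (limma). Over all genes tested, 45.5% had a difference above 0. Sox9, a Sertoli cell transcription factor, averaged 0.263 ± 0.141 FPKM in aged and 0.145 ± 0.060 FPKM in young libraries, and Wt1 1.95 ± 0.407 and 1.87 ± 0.409 FPKM.

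Endothelial markers summed to 3.67 to 7.19 FPKM in aged and 2.49 to 3.59 FPKM in young libraries over 6 genes, of which Cldn5 was at 0 in all 10. Cdh5, an endothelial cadherin, averaged 0.5 ± 0.286 FPKM in aged and 0.144 ± 0.045 FPKM in young libraries, and Vwf 1.53 ± 0.369 and 0.859 ± 0.048 FPKM. Erythroid markers, 2 of 4 names matched, summed to 1.74 to 6.91 FPKM in aged and 0.440 to 1.98 FPKM in young libraries. Hbb, a globin, averaged 2.89 ± 2.09 and 1.13 ± 0.694 FPKM in aged and young libraries, and Alas2, of haem synthesis in red cells, 0.286 ± 0.143 and 0.171 ± 0.061 FPKM. What share these other cells have in the levels of the Leydig cell genes was not tested.

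The summed levels of germ cell markers did not follow this order of libraries. Spermatocyte markers summed to 108.9 to 153.7 FPKM in aged and 133.7 to 180.6 FPKM in young libraries, with aged replicate 1 the lowest library. All 7 tested were below 0 in fitted difference, 2 of them with an unadjusted p under 0.05 (limma). Over all 12985 genes tested, 825 were lower with such a p, and 45.5% had a difference above 0. Sycp1, of the synaptonemal complex, averaged 9.61 ± 1.88 FPKM in aged and 11.5 ± 1.33 FPKM in young libraries, and Sycp2 23.9 ± 1.502 and 28.0 ± 3.09 FPKM. Spermatogonial markers summed to 42.1 to 48.2 FPKM in aged and 39.9 to 57.3 FPKM in young libraries, with Kit at 1.54 ± 0.834 and 1.04 ± 0.173 FPKM and Stra8 at 2.28 ± 0.723 and 2.004 ± 0.604 FPKM. Of the round spermatid markers 4 of 9 had a difference above 0, with Prm1 at 10134 ± 1373 FPKM in aged and 12154 ± 3121 FPKM in young libraries and Prm2 at 760 ± 116 and 818 ± 216 FPKM.

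**Figure D4:**
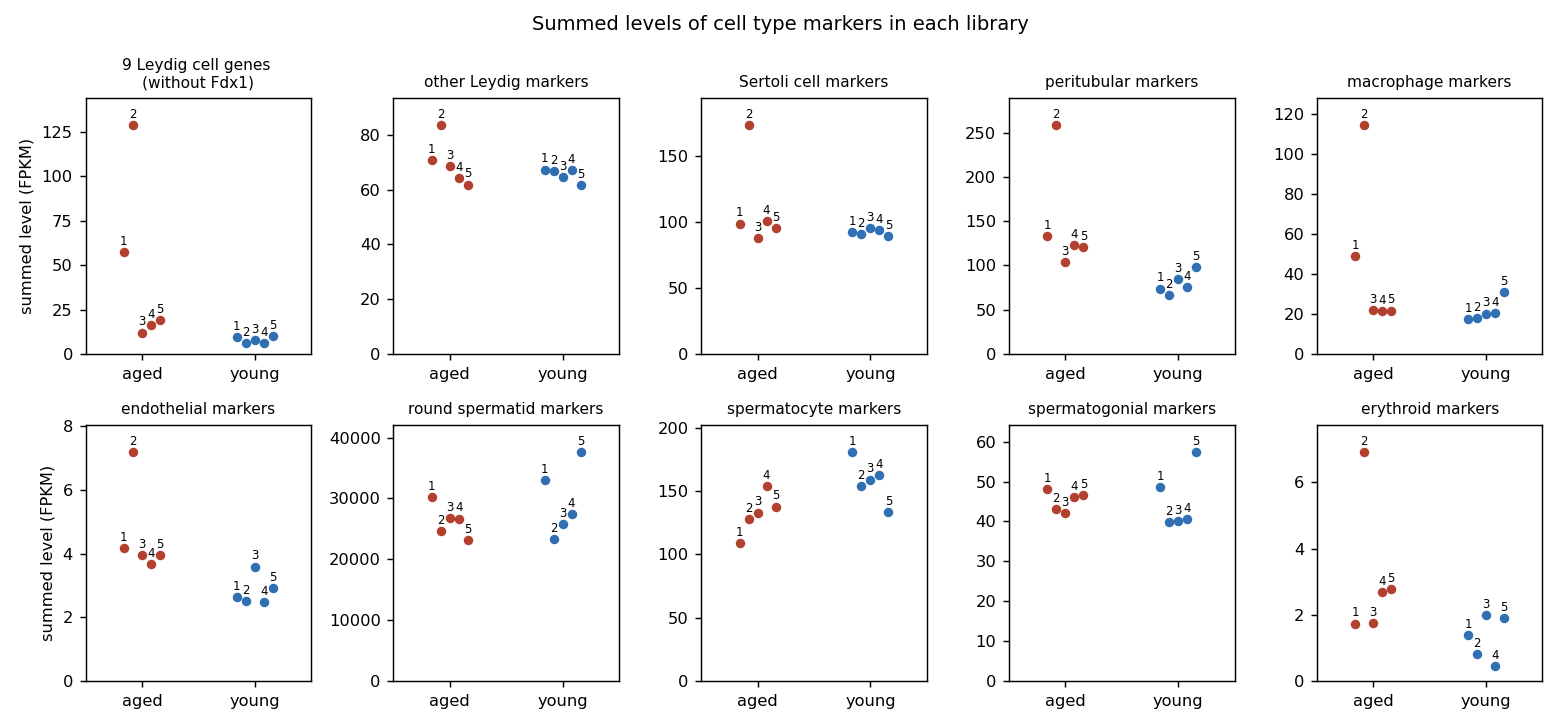
Summed level in FPKM (vertical axis from 0, a scale per panel) of the 9 Leydig cell genes other than Fdx1 and of each marker list, in the aged and young libraries. Points are libraries with their replicate number. Aged replicate 2 is the highest point for the Leydig, Sertoli, peritubular, macrophage, endothelial and erythroid panels, and not for the germ cell panels.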

How the data were processed

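The deposited files hold FPKM values made by the authors, 1 file per sample, with gene positions and lengths. HISAT2 2.0.5 and featureCounts 1.5.0-p3 are named in the submitters' processing notes; no source used here gives the settings, strand or genome build. Per the labels' protocols, SMARTer libraries were made from column-purified RNA. Whole fragments were recovered from FPKM, length and the smallest step per sample; 100% of the values above 0 were whole within 0.001.

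Groups were compared with limma 3.58.1 (lmFit and a trended eBayes, R 4.3.3) on log2(FPKM + 1), which understates changes of low genes, over genes whose mean FPKM was 1 or more (0.1 for the 5 lower members), threshold 0.05. It was tested on simulated data. The files hold FPKM, so no count model was the main test. Tried besides: 0.1 as pseudocount, no filter, mean FPKM filters of 0.1 and 5, median-of-ratios, TPM and quantile scaling, voom on recovered fragments, a replicate block and left-out samples.

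Members and lists were chosen with earlier results of these data known. Named are all 10 members and, per list, its first 2 measured genes, any that passed and pathway genes at 0. Likeness was ranked by Pearson's r, the top 5 taken. Of the genes these rules name, 2 are not reported here.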

Additional observations from a re-analysis of the deposited data

Results flagged for a closer look

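A library was taken to stand apart where its gap to the nearest library of its group of 5, over the group's range, was above 0.71 (Dixon's test at the 95% level). Chance gives such a gap in about 1 of 20 independent groups of normally spread values, and 7 of the 60 groups tested had one. These groups share their libraries, and some are of genes picked for their likeness to the members. The count therefore cannot be set against chance and is a description. Among the members only Scarb1 had one, at 2.97 FPKM in aged replicate 2 with the nearest aged library at 1.30 FPKM. In Insl3 and Cyp17a1 aged replicate 1 was also high, so the gap of aged replicate 2 was not past this limit.

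Aged replicate 2 also stood apart in the summed levels of Sertoli cell markers (173.5 FPKM, nearest 100.7), peritubular markers (258.4 FPKM, nearest 133.3), endothelial markers (7.19 FPKM, nearest 4.18) and erythroid markers (6.91 FPKM, nearest 2.78), and in Timp3 (15.1 FPKM, nearest 6.32). In the young group, replicate 5 stood apart in macrophage markers (31.0 FPKM, nearest 20.2).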

How the results depend on the processing

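No member passed under any alternative run. Among genes with a mean FPKM of 1 or more, 1 gene, not a member, passed without young replicate 1 and 1 without young replicate 2, a range of 0 to 1 over the left-out samples. Among those of 0.1 or more, 2 passed without young replicate 1 and 1 without young replicate 4, again no member. All of these were lower in aged libraries. Under the other alternatives run 0 passed. The log2 difference of Insl3 ranged from 1.09 to 2.53 (adjusted p 0.189 to 0.520) and that of Cyp17a1 from 1.10 to 2.94 (0.188 to 0.520), both lowest without aged replicates 1 and 2. Differences near 0 changed sign. Lhcgr had -0.0034 with quantile scaling, -0.11 without aged replicates 1 and 2, -0.11 without aged replicate 2, and -0.02 without aged replicate 3 or young replicate 4. Fdx1 had -0.031 without young replicate 1. Hsd17b3 had -0.065 without aged replicates 1 and 2. With 1 sample left out, Lhcgr ranged from -0.11 to 0.13, Fdx1 from -0.031 to 0.055 and Hsd17b3 from -0.055 (without aged replicate 2) to 0.11. The cause was not tested. The other 5 members kept their direction in all 17 or 18 alternatives that gave a value. Their size moved with the scale: with voom on recovered fragments the log2 difference of Nr5a1 was 2.04, of Hsd11b1 2.003, of Star 1.75, of Cyp11a1 1.34 and of Scarb1 0.72.

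Same-numbered samples did not deviate together (correlation of deviations -0.16 to 0.05). The labels name no pairing, but these correlations cannot exclude one. No pairing was used in the main fit. With the replicate block 0 genes and 0 members passed, and 1255 genes had an unadjusted p under 0.05 against 1544 without it. Depth limits Star, Hsd17b3 and Nr5a1 most, with as few as 2 fragments in a library.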
